A study of Mus musculus with 8 samples.

Results

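The 32 genes described here encode integrin subunits and laminin chains. They were chosen by name, as mouse symbols of the forms Itga, Itgb, Lama, Lamb or Lamc followed by a number or subunit letter that RefSeq pairs with an accession on the array. They comprise 23 integrin and 9 laminin genes of 32301 named genes and other targets, read by 52 of 41174 non-control probes, and Itga10, Itgad, Itgb8 and Lamc1 are not analysed here. The rule uses names and no measured value, though the set was proposed with earlier results of these data known, and 31 of the 32 passed the filter on dim probes, the exception being Itgb6, so that the tests below cover 31 of 22919 targets.

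The RNA came from 4 groups of 2 samples each, and the groups were the Keap1–/– allograft, the WT allograft, the Keap1–/– dish and the WT dish. Both genotypes were mouse embryonic fibroblasts (MEFs) that share the letters TR in their labels, which are not spelled out there, and the labels give 1 such line for each genotype. Allografts were tumours in nu/nu (nude) mice, taken at 100 to 150 mm3 after injection of 3000000 Keap1–/– or 10000000 WT cells. Nude mice have no thymus and few mature T cells but keep macrophages, neutrophils, natural killer cells, blood vessels and skin, so tumour RNA can hold host transcripts beside those of the MEFs. In such bulk RNA, fewer cells of a type and less RNA per cell cannot be told apart. Whether replicates 1 and 2 were separate cultures or animals is not stated, and the p-values measure only the spread between these samples, which may be technical.

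Integrins are receptors made of 1 alpha and 1 beta subunit that hold cells to the extracellular matrix or to other cells. The beta 1 subunit pairs with many alpha subunits and reads collagens, laminins and fibronectin, the alpha v and beta 3 receptors read the RGD motif of fibronectin and vitronectin, and the beta 2 and beta 7 receptors are best known from leukocytes. Laminins are trimers of an alpha, a beta and a gamma chain that polymerise into the basement membrane on which epithelium, muscle and endothelium rest. KEAP1 is the adaptor that marks the transcription factor NRF2 for destruction.

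Levels are given as log2 of the processed spot intensity minus the 75th percentile of its array, so that 0 is the brightness of the 75th percentile spot and 1 unit is a doubling. Such a level depends on the probe as well as the transcript, and genes are therefore not set against each other by level. Fold changes are log2 differences with their standard error from 1 limma fit over the 8 arrays, and a gene was called at an adjusted p under 0.05 over all 22919 targets. The 75th percentile ran from 1084 to 1546 intensity units over the arrays, no spot was saturated, and replicate arrays differed by a median of 0.15 to 0.26 over these genes. Keap1 itself was lower in the Keap1–/– samples of both growths (-1.69 ± 0.17 (SE), adjusted p = 0.000722 in allografts; -0.86 ± 0.17 (SE), adjusted p = 0.0197 in dishes). Of 14 fibroblast and pericyte markers, 13 were above background on at least 1 dish array, the exception being Fap.

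**Figure D1:**
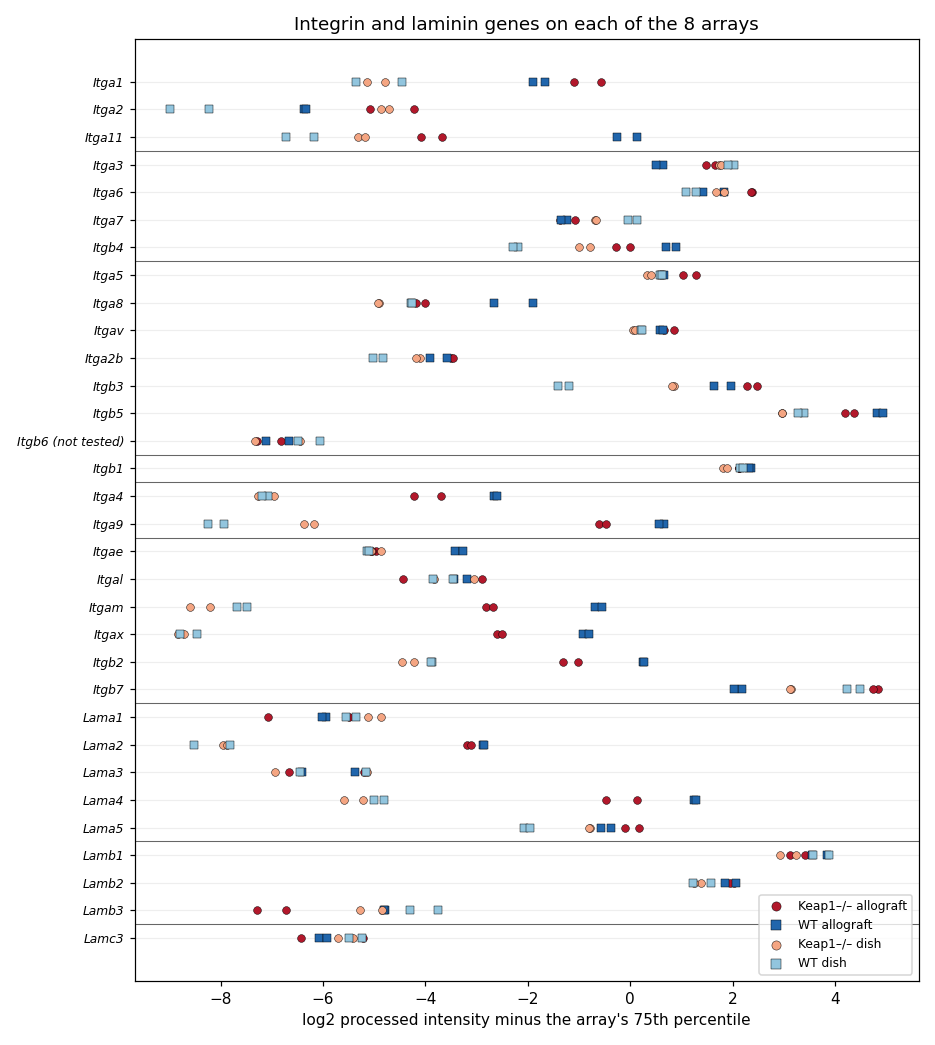
Level of each of the 32 genes on each of the 8 arrays (x axis, log2 processed intensity minus the 75th percentile of the array), with genes grouped by receptor or chain class and the untested Itgb6 included. Circles are Keap1–/– and squares WT samples, dark colours are allografts and light colours dishes. For Itga3 and Itgb7 the WT allograft squares lie left of all other samples.

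In allografts, 19 of the 31 genes differed between the lines, 7 higher and 12 lower in Keap1–/–, where 41.8% of all targets were called (20.5% higher and 21.3% lower). The median over the 31 genes was -0.28 against 0.0043 over all targets. Itgb7 was 6.42-fold higher in Keap1–/– allografts, and the collagen receptor subunit Itga11 was 14.1-fold lower, with the leukocyte subunits Itgb2, Itgam, Itgax and Itgae and with Lama4, Lamb3, Itga4, Itga8 and Itga9 also lower. Some of the 19 calls ended when a single array was left out, and fewer of all targets were called as well.

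In dishes, 12 of the 31 genes differed, 7 higher and 5 lower in Keap1–/–, where 21.1% of all targets were called (11.4% higher and 9.78% lower). The median over the genes was -0.15, against -0.054 over all targets. Itga2, Itgb3, Itga9, Itgb4 and Lama5 were higher in Keap1–/– dishes, while Itgb7, Lamb3 and Itga7 were lower. Some of the 12 calls ended when a single array was left out, and fewer of all targets were called as well. The median over the genes was -0.032 without Keap1–/– dish replicate 1 and -0.21 without Keap1–/– dish replicate 2. It was -0.16 without WT dish replicate 1 and -0.091 without WT dish replicate 2.

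Between allograft and dish, 23 of the 31 genes changed in the Keap1–/– line, 21 higher and 2 lower, where 64.9% of all targets were called (35.8% higher and 29.1% lower). In the WT line 24 changed, 20 higher and 4 lower, where 68.1% were called (35.9% higher and 32.2% lower). Median changes over the genes were 0.75 in Keap1–/– and 1.53 in WT, against 0.025 and -0.021 over all targets. Itga4, Itga9, Itgb2, Itgam, Itgax, Itga1, Lama2 and Lama4 rose in both lines. Of these, Itga4, Itgam, Itgax and Lama2 were above background on no dish array. They passed the filter on dim probes only through the allografts, which left a rise as the only direction open to them. They are counted among the genes called higher in each line. The balance of rises and falls depended on scaling: with each array centred on its median, the median of all targets moved to -0.84 in Keap1–/– and -1.04 in WT, and the genes split into 11 higher and 8 lower in Keap1–/– and 16 higher and 11 lower in WT. Over all targets that centring put 27.34% of the calls higher in Keap1–/– and 25.93% in WT, against 55.18% and 52.68% by the 75th percentile.

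Both lines changed for 21 of the 31 genes between allograft and dish, 20 in the same direction and 1, Itgb7, in opposite directions. Over all targets 52.9% were called in both lines, 47.6% in the same direction and 5.34% in opposite directions. The test of that difference itself (the line difference in allografts minus the one in dishes) called 16 of the 31 genes, 4 positive and 12 negative, where 32.9% of all targets were called (15.8% positive and 17% negative). Between the lines, 9 of the 31 genes were called in both growths, where 13.9% of all targets were (8.71% in the same direction and 5.16% in opposite directions). Of these 9, Itga2, Itgb3, Lama5, Lamb3 and Itgam kept their direction, and Itga9, Itga11, Itgb4 and Itgb7 had opposite directions in allograft and dish. The dish call of Itgam lay on spots all below background, and Itga2 and Itga9 had no WT dish spot above it. With normexp background correction the dish differences were -0.18 for Itgam, 0.11 for Itga9 and 0.19 for Itga11 (adjusted p = 0.434, 0.71 and 0.409 in limma).

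**Figure D2:**
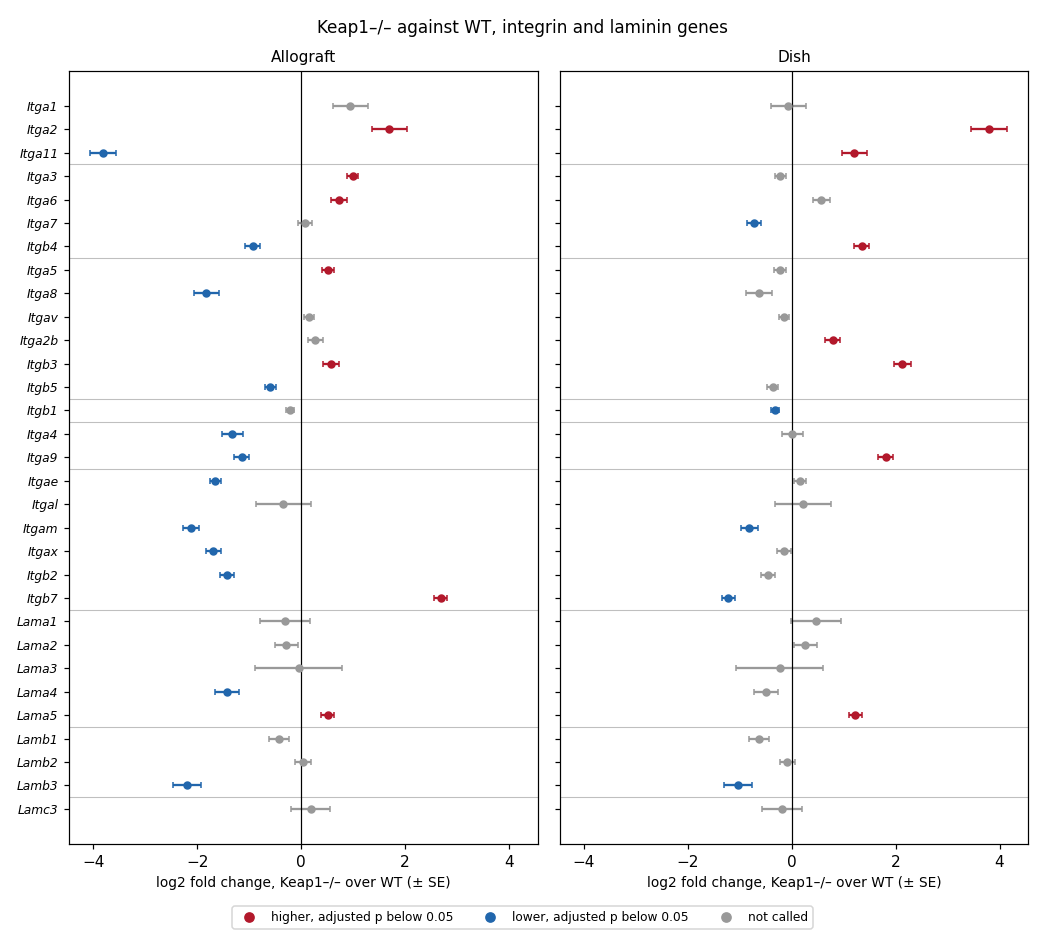
Log2 fold change of Keap1–/– over WT (x axis, with the standard error from limma as bars) for the 31 tested genes in allografts (left) and in dishes (right); red is higher, blue lower and grey not called. Itga11 is at -3.82 in allografts and 1.20 in dishes, and Itgb7 is at 2.68 in allografts and -1.22 in dishes.

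The collagen-binding alpha subunits pair with beta 1. Itga11 encodes alpha 11, a collagen receptor subunit known from mesenchymal cells. Its level was -4.09 and -3.68 in the Keap1–/– allografts and -0.27 and 0.12 in the WT allografts, against -5.31 and -5.18 in the Keap1–/– dishes and -6.71 and -6.18 in the WT dishes. WT allografts stood above every other sample with no overlap. In allografts the Keap1–/– level was 14.1-fold lower (-3.82 ± 0.24 (SE), adjusted p = 0.00012), and in dishes it was 2.30-fold higher (1.20 ± 0.24 (SE), adjusted p = 0.0198), on WT dish spots of which 1 of 2 was above background. From dish to allograft it rose 2.56-fold in Keap1–/– and 83.0-fold in WT, and the difference between these changes was -5.02 ± 0.34 (SE), adjusted p = 0.000308. Of 14 fibroblast and pericyte markers, 4 were higher and 6 lower in Keap1–/– allografts (41.8% of all targets called). In Keap1–/– dishes 9 were higher and 1 lower (21.1% of all targets called). The difference of changes was positive for 2 and negative for 9 (32.9% of all targets called). Their part in the Itga11 values was not tested.

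Itga2 encodes alpha 2 of the collagen receptor alpha 2 beta 1. It read -5.07 and -4.22 in Keap1–/– allografts, -6.37 and -6.33 in WT allografts, -4.88 and -4.72 in Keap1–/– dishes and -8.22 and -8.98 in WT dishes, where neither spot was above background. The Keap1–/– samples of each growth lay above the WT samples of that growth. The Keap1–/– level was 3.25-fold higher in allografts (1.70 ± 0.35 (SE), adjusted p = 0.0104) and at least 3.51-fold higher in dishes (3.80 ± 0.35 (SE), adjusted p = 0.00105). Here and below, "at least" sets the brighter group against the lowest signals that were above background in the dimmer one.

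Itga1, the alpha 1 collagen receptor subunit, was -0.57 and -1.10 in Keap1–/– allografts, -1.91 and -1.66 in WT allografts, -5.15 and -4.79 in Keap1–/– dishes and -5.35 and -4.46 in WT dishes. Allografts were above dishes in each line, 17.6-fold in Keap1–/– and 8.70-fold in WT (adjusted p = 0.000136 and 0.000389). Its 3 probes did not give 1 direction between the lines in allografts: the brightest read 0.95 (adjusted p = 0.0684), and the others -1.26 and -0.95 (adjusted p = 0.0155 and 0.0557 with every probe fitted). Leaving out single arrays ended the Itga11 call in dishes (without either Keap1–/– dish array or WT dish replicate 1, adjusted p = 0.0802 to 0.104) and the Itga2 call in allografts (without WT allograft replicate 1, adjusted p = 0.0508). With normexp background correction the dish difference of Itga11 was 0.19 (adjusted p = 0.409) and the WT change of Itga2, at least 1.20-fold higher in allografts by the processed signal (2.25 ± 0.35 (SE), adjusted p = 0.00172), was -0.039 (adjusted p = 0.862). The Keap1–/– rise of Itga11 had adjusted p of 0.0597 and 0.067 with median centring and quantile normalization.

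Itga3, Itga6, Itga7 and Itgb4 encode laminin-binding subunits, which act as alpha 3 beta 1, alpha 6 beta 1, alpha 7 beta 1 and alpha 6 beta 4. Itgb4 encodes beta 4, which with alpha 6 anchors epithelial cells to their basement membrane. Its level was -0.0043 and -0.27 in Keap1–/– allografts, 0.90 and 0.69 in WT allografts, -0.78 and -1.01 in Keap1–/– dishes and -2.19 and -2.29 in WT dishes, and the 4 groups did not overlap. Keap1–/– was 1.91-fold lower in allografts (-0.93 ± 0.15 (SE), adjusted p = 0.00383) and 2.54-fold higher in dishes (1.35 ± 0.15 (SE), adjusted p = 0.00201). From dish to allograft it rose 1.69-fold in Keap1–/– and 8.18-fold in WT, and the changes differed by -2.28 ± 0.21 (SE), adjusted p = 0.00072.

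Itga3, alpha 3, had 1.48 and 1.65 in Keap1–/– allografts, 0.65 and 0.50 in WT allografts, 1.73 and 1.77 in Keap1–/– dishes and 2.03 and 1.91 in WT dishes. Both WT allografts lay below all other samples. Keap1–/– allografts were 1.99-fold higher than WT allografts (0.99 ± 0.11 (SE), adjusted p = 0.000916). The dimmest of its 3 probes was not called there (0.37, adjusted p = 0.204 with every probe fitted). WT cells were 2.64-fold lower in allografts than in dishes (-1.40 ± 0.11 (SE), adjusted p = 0.000104), while the Keap1–/– change was -0.19 (adjusted p = 0.174), and the difference of the changes was 1.21 ± 0.15 (SE), adjusted p = 0.00238.

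Itga6, alpha 6, was 2.37 and 2.36 in Keap1–/– allografts, 1.84 and 1.43 in WT allografts, 1.82 and 1.67 in Keap1–/– dishes and 1.28 and 1.08 in WT dishes. It was 1.66-fold higher in Keap1–/– than in WT allografts (0.73 ± 0.16 (SE), adjusted p = 0.0138); the dish difference was 0.57 (adjusted p = 0.0561, and 0.0225 with the replicate block). Itga7, alpha 7, a subunit known from muscle, had -1.08 and -1.37 in Keap1–/– allografts, -1.24 and -1.36 in WT allografts, -0.69 and -0.67 in Keap1–/– dishes and 0.14 and -0.047 in WT dishes. Allografts were below dishes in both lines, by 1.46-fold in Keap1–/– and 2.53-fold in WT, and Keap1–/– dishes were 1.65-fold lower than WT dishes (-0.72 ± 0.13 (SE), adjusted p = 0.0136). Skeletal muscle markers summed, as linear intensity over the 75th percentile, to 3.74 and 20.0 in Keap1–/– allografts, 0.997 and 3.38 in WT allografts and 0.23 to 0.33 in dishes. Of 11 such markers tested, 5 were below background on all dish arrays, and their part in the Itga7 values was not tested.

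Single arrays decided several of these calls. Leaving out Keap1–/– allograft replicate 1 or 2 ended the Itga6 call between the allografts (adjusted p = 0.053 to 0.0604). The Itga6 rise from dish to allograft ended without Keap1–/– dish replicate 2 or either Keap1–/– allograft array in Keap1–/– (adjusted p = 0.0572 to 0.0852) and without any array but WT allograft replicate 2 in WT (0.0647 to 0.192). Itga7 lost its dish difference without either Keap1–/– dish array or WT dish replicate 1 (0.073 to 0.0813), its Keap1–/– fall without either Keap1–/– dish array (0.0522 to 0.0567) and its difference of changes without those or WT dish replicate 1 or WT allograft replicate 2 (0.0666 to 0.0754). With arrays centred on their medians, the Itga6 changes from dish to allograft were -0.25 in Keap1–/– (adjusted p = 0.28) and -0.57 in WT, a fall that passed the threshold (adjusted p = 0.0352), and the Itgb4 change in Keap1–/– was -0.11 (adjusted p = 0.612).

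The fibronectin and RGD-binding group holds alpha 5, alpha 8, alpha v, alpha IIb, beta 3 and beta 5. Itgb3, the beta 3 subunit of the vitronectin receptor, had 2.27 and 2.48 in Keap1–/– allografts, 1.98 and 1.63 in WT allografts, 0.85 and 0.81 in Keap1–/– dishes and -1.20 and -1.41 in WT dishes. The 4 groups were in the order Keap1–/– allograft, WT allograft, Keap1–/– dish and WT dish with no overlap. Keap1–/– was 4.38-fold higher in dishes (2.13 ± 0.16 (SE), adjusted p = 0.000454), and from dish to allograft it rose 2.93-fold in Keap1–/– and 8.62-fold in WT (difference of changes -1.56 ± 0.22 (SE), adjusted p = 0.00369). The difference of 1.49-fold in allografts (0.57 ± 0.16 (SE), adjusted p = 0.0294) ended without either Keap1–/– dish array, either Keap1–/– allograft array or WT allograft replicate 2 (adjusted p = 0.0519 to 0.124), and under 5 of the other alternatives (0.0502 to 0.211).

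Itgb5, the beta 5 partner of alpha v, rose from dish to allograft in both lines, 2.50-fold in Keap1–/– and 2.92-fold in WT. It read 4.37 and 4.20 in Keap1–/– allografts, 4.82 and 4.93 in WT allografts, 2.97 and 2.95 in Keap1–/– dishes and 3.39 and 3.27 in WT dishes. Keap1–/– allografts were 1.51-fold below WT allografts (-0.59 ± 0.10 (SE), adjusted p = 0.00613), and the dish difference of -0.37 had an adjusted p of 0.0576, or 0.047 with the replicate block.

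Itga8, alpha 8, which binds RGD ligands such as nephronectin, was -4.19 and -4.01 in Keap1–/– allografts, -2.66 and -1.89 in WT allografts, -4.90 and -4.92 in Keap1–/– dishes and -4.29 and -4.27 in WT dishes. WT allografts lay above all other samples, and Keap1–/– allografts were 3.55-fold lower (-1.83 ± 0.24 (SE), adjusted p = 0.00204). It rose 1.75-fold in Keap1–/– (0.81 ± 0.24 (SE), adjusted p = 0.0276) and 4.02-fold in WT (2.01 ± 0.24 (SE), adjusted p = 0.000641). The Keap1–/– rise ended without any 1 of the 4 Keap1–/– arrays (adjusted p = 0.0629 to 0.112) and read -0.057 with arrays centred on their medians. The difference of changes (-1.20 ± 0.34 (SE), adjusted p = 0.044) ended without any 1 of the dish or Keap1–/– allograft arrays (adjusted p = 0.0778 to 0.12).

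Itga5, alpha 5 of the fibronectin receptor, read 1.02 and 1.28 in Keap1–/– allografts, 0.66 and 0.60 in WT allografts, 0.33 and 0.41 in Keap1–/– dishes and 0.59 and 0.61 in WT dishes. Keap1–/– allografts were 1.43-fold higher (0.52 ± 0.11 (SE), adjusted p = 0.0129), a call that ended without WT allograft replicate 2 (adjusted p = 0.0656), and the 1.72-fold rise in Keap1–/– became -0.083 with arrays centred on their medians. Its difference of changes, 0.75 (adjusted p = 0.0154), ended without Keap1–/– dish replicate 1 or WT allograft replicate 2 (adjusted p = 0.0535 to 0.0631).

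Itgav, alpha v, was 0.66 and 0.85 in Keap1–/– allografts, 0.58 and 0.64 in WT allografts, 0.052 and 0.086 in Keap1–/– dishes and 0.21 and 0.23 in WT dishes, and this brighter of its 2 probes was not called between the lines. With every probe fitted, the dimmer one was lower in Keap1–/– dishes (-0.78, adjusted p = 0.0335) and had a difference of changes of 1.22 (adjusted p = 0.0165). With arrays centred on their medians, the 1.61-fold rise of the brighter probe in Keap1–/– read -0.18 (adjusted p = 0.176) and its WT change -0.63, a called fall (adjusted p = 0.00164). The probes gave opposite calls for the WT change, 0.39 and -0.62, and the call of the brighter one ended without WT dish replicate 1 or WT allograft replicate 2 (adjusted p = 0.0566 to 0.0639). Itga2b, the platelet subunit alpha IIb, was -3.49 and -3.45 in Keap1–/– allografts, -3.57 and -3.92 in WT allografts, -4.10 and -4.18 in Keap1–/– dishes and -4.82 and -5.02 in WT dishes. The dishes differed by 0.78 (adjusted p = 0.0139), a call that ended without either Keap1–/– dish array or WT dish replicate 2 (adjusted p = 0.0666 to 0.0873). Platelet markers summed to 15.9 to 16.9 in Keap1–/– allografts, 18.5 to 18.6 in WT allografts, 0.069 to 0.087 in Keap1–/– dishes and 0.085 to 0.086 in WT dishes, and their part in the Itga2b rises (1.59-fold in Keap1–/–, 2.26-fold in WT) was not tested. With arrays centred on their medians the Itga2b change was -0.20 in Keap1–/–, and the adjusted p of both rises was over the threshold under that, quantile and normexp processing (0.134 to 0.621 in Keap1–/–, 0.104 to 0.481 in WT). Itgb6, beta 6, had 3 probes and none passed the filter.

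Itgb1, the beta 1 subunit that the collagen, laminin and fibronectin receptors share, read 2.12 and 2.12 in Keap1–/– allografts, 2.35 and 2.32 in WT allografts, 1.81 and 1.90 in Keap1–/– dishes and 2.14 and 2.21 in WT dishes. By this brighter of its 2 probes, both Keap1–/– dishes lay below all other samples. Keap1–/– was 1.25-fold lower in dishes (-0.32 ± 0.084 (SE), adjusted p = 0.0445), and in allografts the log2 difference was -0.21 (adjusted p = 0.0935). On the dimmer probe the Keap1–/– dishes overlapped the allografts. With every probe fitted, it was not called between dishes (-0.41, adjusted p = 0.104) or between growths in Keap1–/– (0.034, adjusted p = 0.857). The dish call ended whichever of the 8 arrays was left out (adjusted p = 0.0654 to 0.241), and the Keap1–/– change of 0.27 from dish to allograft (adjusted p = 0.0323) ended without any array but the 2 WT dish arrays (adjusted p = 0.0532 to 0.179). With arrays centred on their medians, the changes were -0.60 in Keap1–/– and -0.87 in WT, both called as falls (adjusted p = 0.00221 and 0.000336).

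Itga9 and Itga4 encode alpha 9 and alpha 4, whose beta 1 receptors bind VCAM-1 and tenascin or fibronectin segments. Itga9 had -0.61 and -0.47 in Keap1–/– allografts, 0.66 and 0.57 in WT allografts, -6.37 and -6.18 in Keap1–/– dishes and -8.25 and -7.93 in WT dishes, where neither spot was above background. All allografts lay above all dishes. It was 53.6-fold higher in allografts than dishes in Keap1–/– (5.74 ± 0.14 (SE), adjusted p = 3.44e-06) and at least 149-fold higher in WT (8.70 ± 0.14 (SE), adjusted p = 9.05e-07). Between the lines it was 2.21-fold lower in Keap1–/– allografts (-1.15 ± 0.14 (SE), adjusted p = 0.00158) and at least 1.26-fold higher in Keap1–/– dishes (1.81 ± 0.14 (SE), adjusted p = 0.000603, and 0.71 with normexp background correction). The changes differed by -2.96 ± 0.20 (SE), adjusted p = 0.000307.

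Itga4 had -4.22 and -3.69 in Keap1–/– allografts and -2.65 and -2.61 in WT allografts, and no dish spot was above background. The allografts were at least 6.73-fold above the dishes in Keap1–/– and at least 15.8-fold above them in WT (adjusted p = 5.29e-05 and 1.31e-05), and Keap1–/– allografts were 2.51-fold below WT allografts (-1.33 ± 0.20 (SE), adjusted p = 0.00328). The difference of changes (-1.34, adjusted p = 0.0155) ended without Keap1–/– dish replicate 2, WT dish replicate 2 or WT allograft replicate 2 (adjusted p = 0.0513 to 0.0531). Itga4 is also known from leukocytes. Leukocyte markers are given below, and their part in the Itga4 values was not tested.

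The leukocyte subunits Itgb2, Itgam and Itgax encode beta 2, alpha M and alpha X of the complement receptors CR3 and CR4, which bind ICAM-1 and complement fragments, and mark macrophages and other myeloid cells. All 3 were lower in Keap1–/– than in WT allografts, and no dish spot of Itgam or Itgax was above background. The promoter windows of Itgam and Itgax are printed as those of 2 genes that were above background on allograft arrays and on no dish array, with those of Itgb7 and Itga11, which had the largest positive and the largest negative difference of changes among the 31 genes. The windows come from RefSeq, assembly GRCm38.p6 (300 bases across the start of the gene), while the array files name another build. Capitals mark matches on either strand to GAGGAAG, an ETS-type site bound by PU.1, to TGANTCA, an AP-1 site, and to TGACNNNGC, the core of the antioxidant response element that NRF2 binds. Itgam is at chr7:128062390-128062689 on the plus strand, Itgax at chr7:128129300-128129599 on the plus strand, Itgb7 at chr15:102231886-102232185 on the minus strand and Itga11 at chr9:62677605-62677904 on the plus strand. They read 5′ to 3′:
Itgam: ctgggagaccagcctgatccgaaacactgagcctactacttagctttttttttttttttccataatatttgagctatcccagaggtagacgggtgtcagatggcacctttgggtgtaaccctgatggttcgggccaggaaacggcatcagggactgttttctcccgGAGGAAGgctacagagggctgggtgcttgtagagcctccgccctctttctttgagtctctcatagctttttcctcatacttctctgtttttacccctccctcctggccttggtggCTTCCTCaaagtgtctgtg
Itgax: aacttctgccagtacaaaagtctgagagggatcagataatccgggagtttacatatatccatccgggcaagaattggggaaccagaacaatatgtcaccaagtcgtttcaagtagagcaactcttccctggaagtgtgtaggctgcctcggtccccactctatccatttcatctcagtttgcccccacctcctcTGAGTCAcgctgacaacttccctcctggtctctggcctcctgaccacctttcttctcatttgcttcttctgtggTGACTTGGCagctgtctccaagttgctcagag
Itgb7: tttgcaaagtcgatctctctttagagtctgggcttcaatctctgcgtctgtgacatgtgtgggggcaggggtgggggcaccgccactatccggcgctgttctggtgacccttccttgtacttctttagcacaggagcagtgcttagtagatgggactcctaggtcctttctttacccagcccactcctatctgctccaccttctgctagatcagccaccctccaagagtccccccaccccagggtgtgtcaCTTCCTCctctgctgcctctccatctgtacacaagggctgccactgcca
Itga11: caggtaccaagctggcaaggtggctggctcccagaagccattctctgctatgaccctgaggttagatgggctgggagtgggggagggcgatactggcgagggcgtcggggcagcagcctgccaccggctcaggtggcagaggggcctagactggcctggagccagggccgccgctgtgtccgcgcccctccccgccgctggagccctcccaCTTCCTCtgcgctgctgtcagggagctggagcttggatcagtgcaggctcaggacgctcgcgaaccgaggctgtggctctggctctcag

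RefSeq windows were found for 21 of the 32 genes (24 windows). GAGGAAG was in 8 of the 24 (33.3%), against 13.6% of all 32851 windows, including those of Itgam, Itgb7, Itga11, Itga2b and Itgav. TGACNNNGC was in 4 (16.7%), against 12.4% of all windows, in Itga9, Itgax, Itgb1 and Itgb6. TGANTCA was in 3 (12.5%), against 7.81% of all, in Itga3, Itga9 and Itgax. In Itgax the last 2 motifs did not overlap. A match is a description of letters in these windows and is not a binding site by itself, and the windows cover only this stretch.

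Itgam read -2.81 and -2.67 in Keap1–/– allografts and -0.69 and -0.56 in WT allografts, and no dish spot was above background. It was 4.33-fold lower in Keap1–/– than in WT allografts (-2.12 ± 0.16 (SE), adjusted p = 0.000207). Against dishes it was at least 15.7-fold higher in Keap1–/– and at least 63.3-fold higher in WT. Between the dishes a difference of -0.82 was called (adjusted p = 0.0168) on spots that were all below background, and that call ended without Keap1–/– dish replicate 2 or WT dish replicate 1 (adjusted p = 0.0773 to 0.0863).

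Itgax read -2.61 and -2.51 in Keap1–/– allografts and -0.93 and -0.81 in WT allografts, with no dish spot above background. It was 3.22-fold lower in Keap1–/– allografts (-1.69 ± 0.14 (SE), adjusted p = 0.000273) and at least 17.8-fold above dishes in Keap1–/– and at least 53.5-fold above dishes in WT. Itgb2 read -1.32 and -1.02 in Keap1–/– allografts, 0.25 and 0.28 in WT allografts, -4.45 and -4.23 in Keap1–/– dishes and -3.88 and -3.89 in WT dishes. The allograft pair of WT stood above all other samples, and Keap1–/– allografts were 2.70-fold lower (-1.43 ± 0.13 (SE), adjusted p = 0.000493). The dish difference of Itgb2 was -0.46 (adjusted p = 0.063, and 0.0337 with the replicate block).

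Itgae, alpha E, the beta 7 partner that binds E-cadherin on epithelium, was -4.96 and -5.04 in Keap1–/– allografts, -3.42 and -3.27 in WT allografts, -4.87 and -5.06 in Keap1–/– dishes and -5.14 and -5.10 in WT dishes. Both WT allografts lay above all other samples, and Keap1–/– allografts were 3.15-fold lower (-1.66 ± 0.11 (SE), adjusted p = 0.000132). Itgal, alpha L of LFA-1, was not called in any comparison, with log2 fold changes of -0.34 between allografts and 0.22 between dishes.

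Summed macrophage markers, like Itgb2, Itgam, Itgax and Itga4, were lower in Keap1–/– than in WT allografts and higher in allografts than in dishes. From dish to allograft in Keap1–/–, Itgae changed by -0.033 (adjusted p = 0.813). Of 14 macrophage markers tested, 12 were lower and 1 (Cd14) higher in Keap1–/– allografts (41.8% of all targets called, 20.5% higher and 21.3% lower). Their summed level was 25.7 to 26.3 in Keap1–/– allografts, 98.0 to 109.4 in WT allografts, 2.42 to 2.52 in Keap1–/– dishes and 2.78 to 3.19 in WT dishes. In the dishes Adgre1, C1qc, Ccr2, Cx3cr1, Fcgr1, Lyz2 and Ptprc were below background on all arrays. Lymphocyte and natural killer markers summed to 0.331 to 0.472 in Keap1–/– allografts, 1.83 to 2.17 in WT allografts and 0.155 to 0.209 in dishes. Of these 12 markers, 0 were called higher and 7 lower in Keap1–/– allografts. The neutrophil marker sum went the other way, 3.72 to 4.05 in Keap1–/– allografts against 1.85 to 2.06 in WT allografts. Of 7 neutrophil markers tested, 3 were called higher and 1 lower in Keap1–/– allografts. The part of these cells in the differences of Itgam, Itgax, Itgb2, Itgae and Itga4 was not tested.

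**Figure D3:**
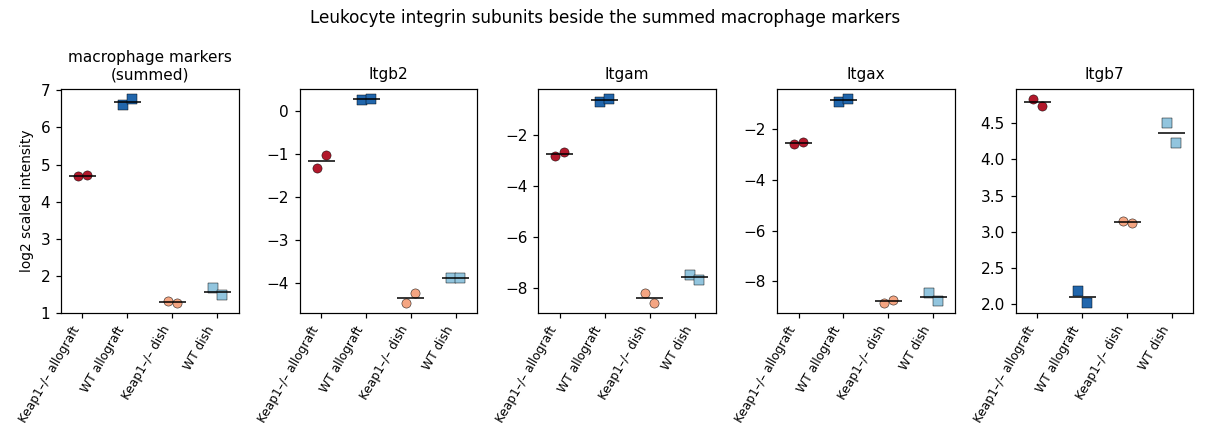
Summed macrophage marker signal (log2 of the linear sum) and the levels of Itgb2, Itgam, Itgax and Itgb7 (log2, relative to the 75th percentile) in each sample, with the group mean as a line and separate y axes. The 2 Keap1–/– allografts lie below the 2 WT allografts in the first 4 panels and above them in the Itgb7 panel, where both dish groups lie between the allografts.

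Itgb7 encodes beta 7, known from lymphocyte homing. It had 1 probe, so no second probe could check its values. That probe read above the 75th percentile on every array, dish-grown fibroblasts included. The Itgb7 level was 4.83 and 4.74 in Keap1–/– allografts, 2.18 and 2.02 in WT allografts, 3.15 and 3.12 in Keap1–/– dishes and 4.49 and 4.23 in WT dishes. In allografts it was 6.42-fold higher in Keap1–/– (2.68 ± 0.12 (SE), adjusted p = 3.82e-05), in dishes 2.34-fold lower (-1.22 ± 0.12 (SE), adjusted p = 0.00156). It rose 3.14-fold from dish to allograft in Keap1–/– (1.65 ± 0.12 (SE), adjusted p = 9.86e-05) and fell 4.78-fold in WT (-2.26 ± 0.12 (SE), adjusted p = 2.79e-05), and the changes differed by 3.91 ± 0.17 (SE), adjusted p = 0.000103. Between the allografts, macrophage and lymphocyte marker sums were lower in Keap1–/– and the neutrophil sum higher in Keap1–/–, as given above, and the part of these cells in the Itgb7 values was not tested.

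**Figure D4:**
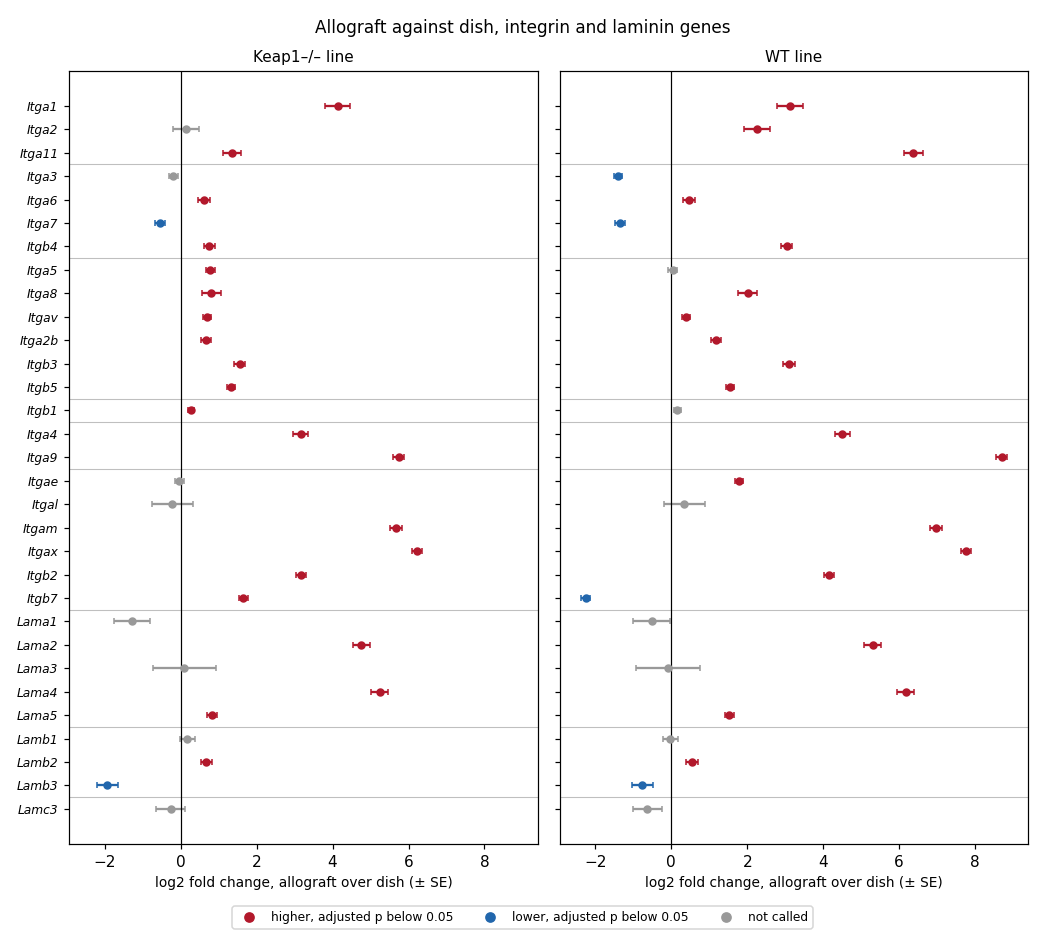
Log2 fold change of allograft over dish (x axis, with the standard error from limma as bars) for the 31 tested genes in the Keap1–/– line (left) and the WT line (right); red is higher, blue lower and grey not called. Itgb7 is at 1.65 in Keap1–/– and -2.26 in WT.

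Laminin alpha chains set which receptors a laminin binds. Lama4, the alpha 4 chain of laminins around vessels and in muscle and fat, had -0.46 and 0.14 in Keap1–/– allografts, 1.25 and 1.29 in WT allografts, -5.58 and -5.22 in Keap1–/– dishes and -4.80 and -5.00 in WT dishes. All allografts lay above all dishes, by 37.7-fold in Keap1–/– (5.24 ± 0.23 (SE), adjusted p = 1.48e-05) and 72.1-fold in WT (6.17 ± 0.23 (SE), adjusted p = 6.87e-06). Keap1–/– allografts were 2.70-fold lower than WT allografts (-1.43 ± 0.23 (SE), adjusted p = 0.00413), and the difference of changes was -0.93 (adjusted p = 0.0756).

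Lama2, the alpha 2 chain of the muscle laminin merosin, read -3.19 and -3.12 in Keap1–/– allografts and -2.87 and -2.86 in WT allografts and was not above background on any dish array. Allografts were at least 11.8-fold higher in Keap1–/– and at least 13.4-fold higher in WT. Endothelial markers summed to 22.3 to 24.6 in Keap1–/– allografts, 25.6 to 27.8 in WT allografts, 4.34 to 4.49 in Keap1–/– dishes and 5.37 to 5.84 in WT dishes, with Emcn, Pecam1, Tek and Tie1 below background on all dish arrays. The dish sums include Egfl7 and Flt1, with mean levels of 0.82 and 1.21 in Keap1–/– dishes and 1.41 and 1.31 in WT dishes. All 12 endothelial markers were called higher in allografts than in dishes in each line (64.9% of all targets called in Keap1–/– and 68.1% in WT). Their median log2 change was 5.36 in Keap1–/– and 5.58 in WT. The part of the endothelial markers in the rises of Lama2 and Lama4 was not tested.

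Lama5, the alpha 5 chain of most adult basement membranes, read 0.17 and -0.10 in Keap1–/– allografts, -0.57 and -0.38 in WT allografts, -0.78 and -0.80 in Keap1–/– dishes and -2.07 and -1.95 in WT dishes. Keap1–/– dishes were 2.33-fold higher than WT dishes (1.22 ± 0.13 (SE), adjusted p = 0.00182). Keap1–/– allografts were 1.42-fold higher than WT allografts (0.51 ± 0.13 (SE), adjusted p = 0.0227), a call that ended without Keap1–/– allograft replicate 1 or WT allograft replicate 1 (adjusted p = 0.092 to 0.109). It rose 1.77-fold in Keap1–/– and 2.89-fold in WT, and the Keap1–/– rise read -0.047 with arrays centred on their medians. The difference of changes of -0.71 (adjusted p = 0.0299) ended without any dish array, Keap1–/– allograft replicate 2 or WT allograft replicate 2 (adjusted p = 0.0579 to 0.0935).

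Lama1, the embryonic alpha 1 chain, was called in no comparison, with a Keap1–/– change of -1.29 (adjusted p = 0.0574) on replicates up to 1.59 apart. Lama3, the alpha 3 chain of an epithelial laminin, was also not called: its brightest probe differed by 1.03 to 1.80 between slides in each group. Its second probe was 2.16 higher in allografts of Keap1–/– and 2.29 higher in those of WT (adjusted p = 0.00135 and 0.000938, every probe fitted).

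Beta and gamma chains complete the trimers. Lamb3, the beta 3 chain, was -7.28 and -6.71 in Keap1–/– allografts, where no spot was above background, -4.78 and -4.81 in WT allografts, -5.28 and -4.86 in Keap1–/– dishes and -3.76 and -4.30 in WT dishes. Keap1–/– allografts were at least 3.70-fold lower than WT allografts (-2.20 ± 0.27 (SE), adjusted p = 0.00154) and at least 3.07-fold lower than Keap1–/– dishes (-1.93 ± 0.27 (SE), adjusted p = 0.00135). The dish difference (-1.04 ± 0.27 (SE), adjusted p = 0.0461; 0.0557 with the replicate block) ended without any array but the Keap1–/– allografts (adjusted p = 0.0523 to 0.204). The WT fall (-0.77 ± 0.27 (SE), adjusted p = 0.0469; 0.0612 with the replicate block) ended without either Keap1–/– dish array, WT dish replicate 1 or either WT allograft array (adjusted p = 0.0526 to 0.21). Keratinocyte markers summed to 11.5 to 16.4 in Keap1–/– allografts, 9.83 to 11.8 in WT allografts, 16.3 to 18.2 in Keap1–/– dishes and 17.2 to 21.0 in WT dishes. Of the 12 summed, Dsg3, Ivl, Krt1 and Trp63 were below background on all dish arrays. Of 10 tested, 2 were higher and 0 lower in Keap1–/– than in WT allografts (41.8% of all targets called). From dish to allograft, 3 were higher and 1 lower in Keap1–/– (64.9% of all targets called). In WT 3 were higher and 2 lower (68.1% of all targets called). The part of the keratinocyte markers in the Lamb3 values was not tested.

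Lamb1, the beta 1 chain of most laminins, read 3.11 and 3.41 in Keap1–/– allografts, 3.54 and 3.84 in WT allografts, 2.93 and 3.23 in Keap1–/– dishes and 3.57 and 3.87 in WT dishes. It was called nowhere, with -0.43 between allografts and -0.64 between dishes (adjusted p = 0.127 and 0.0698); with the replicate block both passed (adjusted p = 0.00514 and 0.00326). Lamb2, the beta 2 chain, rose 1.59-fold in Keap1–/– and 1.46-fold in WT from dish to allograft. These rises ended without Keap1–/– dish replicate 2 in Keap1–/– (adjusted p = 0.0518) and without WT dish replicate 2 or WT allograft replicate 1 in WT (adjusted p = 0.0779 to 0.0931), and read -0.19 and -0.47 with arrays centred on their medians. Lamc3, the gamma 3 chain, was dim and called in no comparison.

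Integrins signal through a complex of cytoplasmic partners. The list of 28 integrin adhesion genes (talins, kindlins, the ILK, PINCH and parvin scaffold, focal adhesion kinases) had 26 tested, of which 7 were higher and 10 lower in Keap1–/– allografts and 3 higher and 8 lower in Keap1–/– dishes, where 41.8% and 21.1% of all targets were called. Between allograft and dish, 6 were higher and 8 lower in Keap1–/– and 6 higher and 10 lower in WT, with median changes of -0.20 and -0.21, where 64.9% and 68.1% of all targets were called. The scaffold gene Parvg, the parvin of blood cells, was 4.49-fold lower in Keap1–/– allografts (-2.17 ± 0.24 (SE), adjusted p = 0.000979), and Fermt3, the kindlin of blood cells, 2.70-fold lower (-1.43 ± 0.12 (SE), adjusted p = 0.000271). Cd47, an integrin-associated membrane protein, was 2.69-fold higher (1.43 ± 0.083 (SE), adjusted p = 9e-05). In dishes the tensin Tns1 was 3.07-fold higher and the kinase Ptk2b 2.73-fold lower in Keap1–/– (adjusted p = 0.000136 and 0.0018). Lims2, a PINCH adaptor, rose from dish to allograft, 18.6-fold in Keap1–/– and 7.59-fold in WT.

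Of 23 integrin ligands other than laminins, 20 were tested, and 14 were higher and 2 lower in Keap1–/– allografts than in Keap1–/– dishes, against 15 higher and 4 lower in WT (64.9% and 68.1% of all targets called). Their median change was 1.19 in Keap1–/– and 2.58 in WT. Between the lines, 2 were higher and 11 lower in Keap1–/– allografts, and 6 higher and 4 lower in Keap1–/– dishes (41.8% and 21.1% of all targets called). Postn, periostin, a ligand of alpha v receptors, was 12.0-fold lower in Keap1–/– allografts (-3.58 ± 0.28 (SE), adjusted p = 0.000233), and Icam1, a ligand of beta 2 integrins, 5.19-fold lower (-2.38 ± 0.38 (SE), adjusted p = 0.00429). Tnc, tenascin C, a ligand of alpha 9 beta 1, was 3.77-fold higher (1.91 ± 0.12 (SE), adjusted p = 0.000111). In dishes Vcam1, a ligand of alpha 4 and alpha 9 beta 1, was 4.22-fold, Col3a1 7.36-fold and Edil3 7.40-fold higher in Keap1–/–. Icam2, an endothelial beta 2 ligand, was at least 178-fold above dishes in Keap1–/– allografts and at least 269-fold above them in WT allografts. Postn was 81.1-fold higher in allografts in Keap1–/– and 1819.5-fold higher in WT.

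Among 22 basement membrane partners, 18 were tested, and 13 were higher and 1 lower in Keap1–/– allografts than dishes and 12 higher and 2 lower in WT (64.9% and 68.1% of all targets called). Between the lines, 5 were higher and 4 lower in Keap1–/– allografts, and 7 higher and 0 lower in Keap1–/– dishes (41.8% and 21.1% of all targets called). Ntn4, netrin 4, which binds laminin gamma chains, was 12.0-fold higher in Keap1–/– allografts (3.59 ± 0.14 (SE), adjusted p = 2.59e-05), and Nid1, the nidogen that ties laminin to collagen IV, 2.23-fold higher (1.16 ± 0.11 (SE), adjusted p = 0.000533). Col15a1, a basement membrane collagen, was 7.14-fold lower (-2.84 ± 0.26 (SE), adjusted p = 0.00043). From dish to allograft it rose 10.4-fold in Keap1–/– and 149-fold in WT, and the nidogen Nid2 rose 12.1-fold in WT. The genes of these lists and those of the 32 were chosen knowing earlier results of these data, and their counts are descriptions beside the share of all targets called.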

How the data were processed

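Total RNA (500 ng per sample) of 8 samples was labelled with Cy3, per the labels' protocols, and read on 8 one-colour arrays, 2 in each of 4 groups. Per the file headers, the deposited scanner files hold spot intensity values from Agilent Feature Extraction (version 10.7.3.1), with background and a spatial trend already subtracted and no scaling between arrays. The deposited series table holds the same intensity rounded (largest difference 0.496%), on a linear scale, with no centring and no log.

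Here the log2 processed signal minus each array's 75th percentile was used. Control and outlier spots were left out, spots of a probe averaged, and a probe was tested if some group had it well above background on each of its 2 arrays (30355 of 41174). A gene was read by its brightest tested probe, named through the RefSeq accession (26690 probes had a symbol and 14484 none), which gave 22919 targets, 14855 of them named. One fit of 4 group means in limma 3.58.1 (R 4.3.3) had 4 residual degrees of freedom, and 5 comparisons were each adjusted by Benjamini-Hochberg. The method was tested on simulated data. The simulated arrays had independent noise, so that test did not cover the pairing of arrays by slide described below. An exact permutation test of 2 against 2 samples cannot go below 0.33. The number of arrays limits the precision.

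The members and gene lists were chosen with earlier results of these data known, and 1 further gene of the set is not reported here. Genes named with full values were the called members with the largest change (up to 5 in each direction and comparison), Itgb1, members that complete a receptor or trimer, and up to 3 called genes of each partner list. The files name no mean signal, so the normexp alternative (offset 50) used the median signal. Each slide held 1 array of every group and matched the replicate number. Same-numbered arrays deviated together (r = 0.25 to 0.43), so replicate numbers pair samples by slide. Every member called between groups had the same sign on each slide. A call already requires a difference that is large against the replicate spread, so this agreement of sign is no separate check of the calls. Alternatives were other scalings, background correction, filters on dim probes, probe choice, the replicate block and leaving out each array.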

Additional observations from a re-analysis of the deposited data

Results flagged for a closer look

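For 16 of the 31 genes the change from dish to allograft differed between the lines by the interaction test in limma, where 32.9% of all targets were called. The values are log2 changes in Keap1–/– minus those in WT, by the brightest tested probe of each gene. Itga4, Itgam and Itgax had no dish spot above background, and Itga2 and Itga9 had none in WT dishes. The values of these genes rest in part on signals below background. With every probe fitted, the dimmer Itgam probe read -0.30 (adjusted p = 0.547) and the dimmest Itga3 probe 0.66 (adjusted p = 0.14). Positive differences were 3.91 for Itgb7, 1.21 for Itga3, 0.79 for Itga7 and 0.75 for Itga5. Negative differences were -5.02 for Itga11, -2.96 for Itga9, -2.28 for Itgb4, -2.10 for Itga2, -1.81 for Itgae, -1.56 for Itgb3, -1.53 for Itgax, -1.34 for Itga4, -1.30 for Itgam, -1.20 for Itga8, -0.97 for Itgb2 and -0.71 for Lama5. The Itga2 call (adjusted p = 0.0219) ended without either Keap1–/– dish array, WT dish replicate 2 or either WT allograft array (adjusted p = 0.0516 to 0.0691). No gene here was tested for a sample that stands apart, since each group had 2 samples.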

How the results depend on the processing

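Of 94 calls over the 5 comparisons, 59 held under every alternative run: 14 of 19 between allografts, 5 of 12 between dishes, 12 of 23 between growths in Keap1–/–, 18 of 24 in WT and 10 of 16 for the difference of changes. The run that fitted every probe read each gene by the same probe as the main fit. Genes with no probe above background on all 8 arrays were absent from that filter's run and were judged on 16 alternatives, not 17. The count between dishes was 6 with normexp correction, where 2830 of all targets were called, against 4843 in the main fit. With only the 21 genes above background on all 8 arrays, the counts were 12 between allografts and 10 for the difference of changes, from fewer genes tested. There 7873 and 6344 of 17487 targets were called. Leaving out 1 array at a time moved the counts, over these genes and over all targets. Medians over the genes then ran from -0.21 to -0.032 between dishes and from -0.50 to -0.077 between allografts. They ran from 0.71 to 0.80 between growths in Keap1–/–, from 1.44 to 1.60 in WT and from -0.76 to -0.49 for the difference of changes. With the replicate block (slide), the counts were 20 between allografts, 15 between dishes, 23 and 23 between growths and 16 for the difference of changes. Over all targets the block called 11418 between allografts and 6517 between dishes. It called 16486 between growths in Keap1–/–, 17068 in WT and 9379 for the difference of changes. The block changed no call other than those of Itga6, Itgb2, Itgb5, Lamb1 and Lamb3 given above. Share of all calls that were higher: between dishes 37.34% with median centring and 76.41% unscaled, against 53.73%; between allografts 30.54% unscaled, against 48.97%; between growths in WT 78.5% unscaled, against 52.68%; positive differences of changes 23.28% unscaled, against 48.21%.

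Several log2 values changed sign. With arrays centred on their medians, growth changes in Keap1–/– were -0.20 (Itga2b), -0.083 (Itga5), -0.25 (Itga6), -0.057 (Itga8), -0.18 (Itgav), -0.60 (Itgb1), -0.11 (Itgb4), -0.047 (Lama5), -0.69 (Lamb1) and -0.19 (Lamb2), and in WT -0.99 (Itga5), -0.57 (Itga6), -0.63 (Itgav), -0.87 (Itgb1) and -0.47 (Lamb2). Of these, the falls of Itgb1 and Lamb1 in Keap1–/– and of Itga5, Itga6, Itgav and Itgb1 in WT passed the threshold (adjusted p = 0.000253 to 0.0352). Quantile normalization gave -0.11 (Itga2b) and -0.037 (Itga8) in Keap1–/–. Normexp gave Itga2 -0.039 in WT and 0.075 for the difference of changes. Averaging probes gave Itga1 -0.42 between allografts and -0.85 for the difference of changes (adjusted p = 0.0452 and 0.0171), and Itgav -0.12 in WT. The cause was not tested. Of 12 genes with several tested probes, opposite calls occurred for Itgav alone. For the difference of changes, 4 of them (Itga1, Itga3, Itgam and Itgav) were called by some of their probes only. Genes below background in a group have only a bound there.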
